A study of Mus musculus with 6 samples.

Results

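Small nucleolar RNA host genes are known for their introns: an intron can carry a small nucleolar RNA (snoRNA) that is freed after splicing, while the spliced exons are left as a noncoding RNA. The 7 genes described here are the rows of the deposited gene table named Gas5, Snhg1, Snhg3, Snhg5, Snhg6, Snhg8 and Snhg12, chosen by name out of 46452 genes. All 7 were found and all 7 were tested. They were measured in hearts of mice at 10 days of age, in 3 libraries labelled Nat10flox/flox, which carry loxP-flanked alleles of Nat10, and in 3 labelled Nat10-CKO, read here as a conditional knockout. The labels call the replicates biological and independent, without saying whether animals were pooled, and neither the Cre driver, the deleted exons, the strain nor the sex is named in the sources used here.

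In textbook terms, box C/D snoRNAs guide 2'-O-methylation and box H/ACA snoRNAs guide pseudouridylation of ribosomal RNA, and a few of them act in cleavage of the ribosomal RNA precursor instead. Each kind is bound by its own set of core proteins. The spliced host RNAs are known in mammalian cells to begin with a pyrimidine tract, as messenger RNAs of ribosomal proteins do, and to be degraded by nonsense-mediated decay once they are translated. NAT10 is an RNA acetyltransferase that modifies 18S ribosomal RNA and transfer RNA.

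Levels are in FPKM, the fragments of a gene per kilobase of its length after scaling for depth. The libraries held 31155521 to 38051266 reads in genes, so that a single read over 1 kb came to 0.0246 to 0.0316 FPKM. Nat10, the targeted gene, had 3.75, 4.18 and 4.71 FPKM under the label Nat10flox/flox and 8.28, 8.66 and 10.2 FPKM under the label Nat10-CKO. It was higher where the label names its knockout (log2 fold change of 0.94, limma adjusted p of 0.00142), so every direction given here is one between labels. Transcripts of the mitochondrial chromosome took 16.6% to 18.3% of reads under the first label and 7.56% to 9.26% under the second. Defining genes of heart muscle were abundant in every library. The summed level of 8 cardiomyocyte markers was 13117 FPKM in Nat10-CKO replicate 1, the lowest, and 19807 to 24205 FPKM in the other libraries. Nat10flox/flox replicate 1 stood apart in that 8 autonomic neuron markers summed to 222 FPKM there and to 1.63 to 3.95 FPKM in the other libraries.

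The identity of these genes lies in the snoRNAs they carry, so 1 is shown per host, read from the GRCm39 genome at the coordinates of the deposited table. Capitals mark the boxes found by exact match: TGATGA (box C) and CTGA (box D) in box C/D snoRNAs, and the ACA near the 3' end in box H/ACA snoRNAs. All those shown matched, but not every snoRNA of these hosts did. The exact match failed for SNORD75 and SNORD78 of Gas5, SNORD26 and Snord22 of Snhg1, and Snord99 and Snora44 of Snhg12.
SNORD44 in Gas5, chr1:160864252-160864311 (+): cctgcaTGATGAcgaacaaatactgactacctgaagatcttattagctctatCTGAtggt
SNORD31 in Snhg1, chr19:8702958-8703024 (+): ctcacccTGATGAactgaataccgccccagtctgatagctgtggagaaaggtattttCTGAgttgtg
SNORD50 in Snhg5, chr9:88403582-88403653 (-): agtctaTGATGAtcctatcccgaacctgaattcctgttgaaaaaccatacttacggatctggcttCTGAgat
Snord87 in Snhg6, chr1:10012695-10012768 (-): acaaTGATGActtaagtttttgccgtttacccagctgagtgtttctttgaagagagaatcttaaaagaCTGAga
Snora73a in Snhg3, chr4:132080086-132080290 (-): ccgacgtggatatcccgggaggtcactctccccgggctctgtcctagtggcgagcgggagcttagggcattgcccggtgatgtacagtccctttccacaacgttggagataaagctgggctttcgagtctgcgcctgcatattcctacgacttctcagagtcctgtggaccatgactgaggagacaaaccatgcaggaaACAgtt
Snora24 in Snhg8, chr3:123301586-123301715 (-): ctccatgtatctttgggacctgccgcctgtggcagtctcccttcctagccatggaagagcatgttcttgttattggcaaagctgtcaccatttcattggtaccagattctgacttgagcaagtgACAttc
Snora16a in Snhg12, chr4:132036776-132036911 (+): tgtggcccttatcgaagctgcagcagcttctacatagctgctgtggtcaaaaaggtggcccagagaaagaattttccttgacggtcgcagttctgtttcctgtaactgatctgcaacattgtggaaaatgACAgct

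There were 26 snoRNA rows that lie on the same strand inside the 7 hosts by the deposited coordinates, 20 of box C/D and 6 of box H/ACA. Gas5 and Snhg1 hold 8 each, all of box C/D, Snhg12 holds 3 of box H/ACA and 1 of box C/D, Snhg3 and Snhg5 hold 2 each, and Snhg6 and Snhg8 hold 1 each. Snora73a and Snora73b, the snoRNAs of Snhg3, are the U17 RNAs, which are needed for cleavage of the ribosomal RNA precursor and not for modification. The deposited gene length, over which reads were counted, made up 15.7% of the span of Gas5, 16.8% of Snhg1, 19.4% of Snhg6, 24.9% of Snhg3, 25.8% of Snhg12 and 54.8% of Snhg5. Snhg8 was counted over its whole span of 785 bases, so that Snora24 lies within the counted sequence of its host.

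The start regions are shown because the pyrimidine tract at the start is what the host RNAs are known to share with ribosomal protein messages. Each line gives 10 bases before and 30 bases from the start that the largest number of GENCODE vM39 transcripts of the gene share, on GRCm39. Ties went to the most upstream start. Capitals mark an unbroken run of at least 5 bases that starts with C within 2 bases of that start and goes on with C or T. The last 3 lines are Snhg15, Snhg16 and Snhg17, noncoding hosts outside the 7 that are described further on.
Gas5, chr1:160862726-160862765 (+): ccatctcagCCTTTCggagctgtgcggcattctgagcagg
Snhg1, chr19:8700841-8700880 (+): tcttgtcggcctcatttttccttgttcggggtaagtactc
Snhg3, chr4:132080968-132081007 (-): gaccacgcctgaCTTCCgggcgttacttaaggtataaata
Snhg5, chr9:88404915-88404954 (-): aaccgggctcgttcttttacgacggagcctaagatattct
Snhg6, chr1:10014314-10014353 (-): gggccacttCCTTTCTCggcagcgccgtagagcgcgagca
Snhg8, chr3:123301963-123302002 (-): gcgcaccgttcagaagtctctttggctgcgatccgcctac
Snhg12, chr4:132035977-132036016 (+): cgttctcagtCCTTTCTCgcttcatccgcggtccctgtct
Snhg15, chr11:6478737-6478776 (-): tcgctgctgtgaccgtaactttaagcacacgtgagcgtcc
Snhg16, chr11:116562485-116562524 (+): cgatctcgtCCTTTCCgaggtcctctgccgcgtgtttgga
Snhg17, chr2:158203434-158203473 (-): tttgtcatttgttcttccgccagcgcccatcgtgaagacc

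Such a run was present at the start of 4 of the 7 hosts (57.1%), Gas5, Snhg3, Snhg6 and Snhg12, against 8.47% of 77949 annotated genes. The run was 8 bases long in Snhg6 and Snhg12, 6 in Gas5 and 5 in Snhg3. The letters were searched on the transcribed strand alone, and the annotated starts are spread. The start used here belonged to 80 of 229 annotated transcripts of Gas5 and to 1 of 5 of Snhg3. No start of Snhg3 was shared between transcripts, so the most upstream was taken. Its run, of the minimum length, began 2 bases after that start, the furthest allowed.

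Between the labels 1 of the 7 host genes passed the test, and their log2 fold changes lay between -0.58 (Snhg8) and 0.32 (Snhg1). Of the 7, 0 were called higher and 1 (Snhg3) was called lower, against 24.4% higher and 16% lower among 11996 tested genes, 40.5% called in all. An unadjusted p under 0.05 by limma was found for 1 of the 7, again Snhg3, and with voom on the recovered reads 0 were called. Among tested long noncoding RNA rows 49.5% of 317 were called, 19.2% higher and 30.3% lower. The median log2 fold change of the 7 was -0.16 and their median absolute log2 fold change 0.20, against 0.03 and 0.38 for all tested genes. The balance of calls over all genes moved with scaling: higher calls were 60.4% of calls as deposited, 72.7% under TPM-like scaling, 48.7% with mitochondrial genes left out and 47.6% with protein-coding genes rescaled. In whole hearts, fewer cells of a type and less RNA per cell cannot be told apart. Fold changes were computed on log2(FPKM + 1), which understates the change of low genes. A miss of the threshold does not show equal levels, and the intervals below give the sizes that the 3 libraries per group leave possible.

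**Figure D1:**
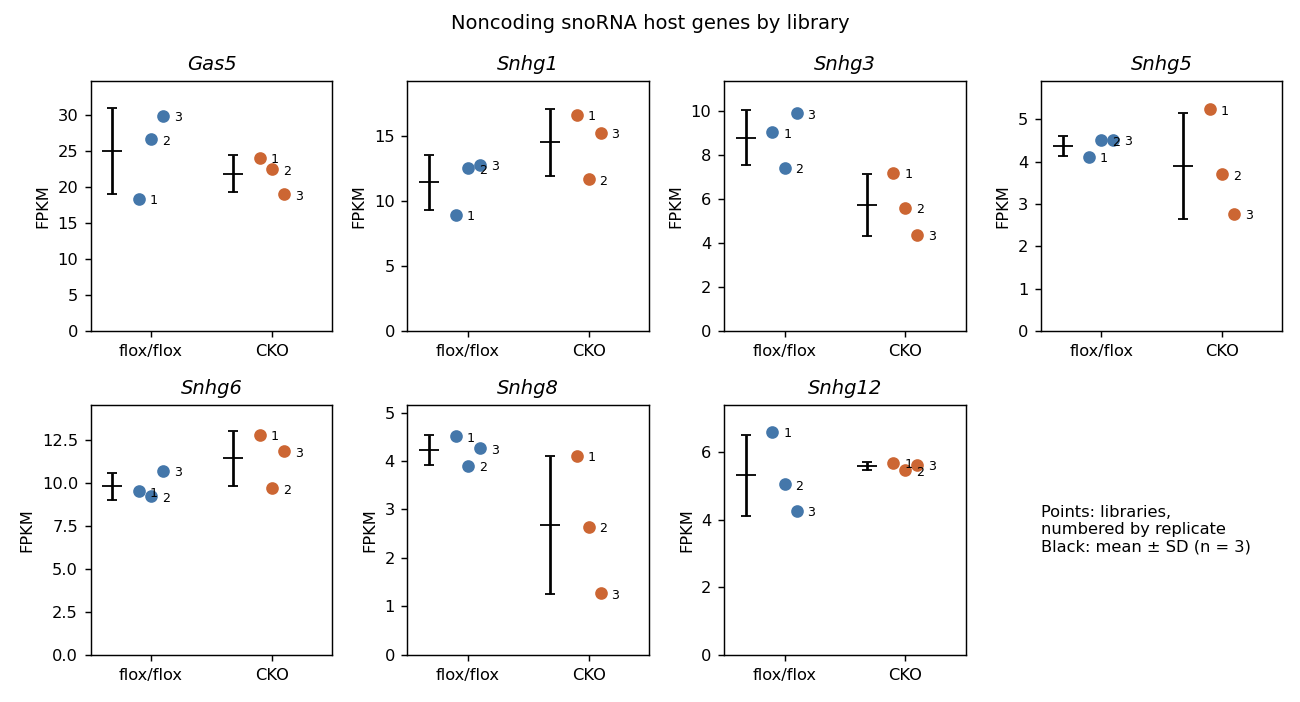
Level of each host gene in FPKM (vertical axis, from 0) in the 3 Nat10flox/flox libraries and the 3 Nat10-CKO libraries, with points numbered by replicate and black marks for the mean and SD. Snhg3 is the 1 panel in which the groups do not overlap.

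Gas5 (gene ID 14455, chr1:160862171-160866109, plus strand), the host of 8 box C/D snoRNAs and named for its accumulation in growth-arrested mouse cells, was the most abundant. Its level was 18.4, 26.7 and 29.95 FPKM in the Nat10flox/flox libraries and 24.1, 22.5 and 19.0 FPKM in the Nat10-CKO libraries, from 401 to 660 reads. The Nat10-CKO values all lay within the range of the Nat10flox/flox values, whose lowest was replicate 1, the library with neuron markers. The log2 fold change was -0.16 with a 95% interval of -0.63 to 0.30 (adjusted p = 0.529 by limma). It was -0.43 without both Nat10flox/flox replicate 1 and Nat10-CKO replicate 1 (limma adjusted p of 0.0466).

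Snhg1 (gene ID 83673, chr19:8700851-8703690, plus strand), which carries SNORD25 to SNORD31 and Snord22, was 8.98, 12.5 and 12.8 FPKM in the Nat10flox/flox libraries and 16.6, 11.7 and 15.3 FPKM in the Nat10-CKO libraries (174 to 292 reads). Replicates 1 and 3 of Nat10-CKO were above every Nat10flox/flox library and replicate 2 was not. The log2 fold change was 0.32, with an interval of -0.11 to 0.75 (adjusted p = 0.2 by limma).

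Snhg6 (gene ID 73824, chr1:10012250-10014343, minus strand), the host of Snord87, had 9.54, 9.23 and 10.7 FPKM against 12.8, 9.69 and 11.9 FPKM in the Nat10-CKO libraries. The groups overlapped through Nat10-CKO replicate 2. Its log2 fold change was 0.20, interval -0.11 to 0.50 (adjusted p = 0.255 by limma). Snhg12 (gene ID 100039864, chr4:132035989-132038335, plus strand) had 6.61, 5.06 and 4.27 FPKM against 5.69, 5.46 and 5.63 FPKM. Here the Nat10-CKO libraries fell within the Nat10flox/flox range and differed little among themselves, with a coefficient of variation of 2.07% against 22.4%. Its highest library was Nat10flox/flox replicate 1. The log2 fold change of Snhg12 was 0.08, interval -0.26 to 0.42, and turned to -0.0179 with mitochondrial genes left out and to -0.025 with protein-coding genes rescaled.

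Snhg3 (gene ID 399101, chr4:132079244-132080997, minus strand) was 9.05, 7.44 and 9.91 FPKM in the Nat10flox/flox libraries and 7.20, 5.60 and 4.38 FPKM in the Nat10-CKO libraries (65 to 161 reads). Every Nat10-CKO library lay below every Nat10flox/flox library, a separation seen for 55.9% of all tested genes in either direction, and the nearest values were 7.20 and 7.44 FPKM. On average Snhg3 had 8.80 ± 1.25 against 5.73 ± 1.417 FPKM (SD over 3 libraries each), a log2 fold change of -0.56 ± 0.18 (SE) with an adjusted p of 0.0456 by limma. The call was lost without any 1 library except Nat10-CKO replicate 1: the adjusted p was 0.0565 to 0.138 without a Nat10flox/flox library, 0.11 without Nat10-CKO replicate 2 and 0.105 without Nat10-CKO replicate 3. It was 0.0141 without Nat10-CKO replicate 1.

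Snhg8 (gene ID 69895, chr3:123301201-123301985, minus strand), the host of Snora24, was 4.51, 3.90 and 4.27 FPKM in the Nat10flox/flox libraries and 4.11, 2.64 and 1.27 FPKM in the Nat10-CKO libraries. Nat10-CKO replicate 1 lay within the Nat10flox/flox range and replicate 3, with 34 reads, was the lowest library. The log2 fold change was -0.58, interval -1.25 to 0.08 (adjusted p = 0.138 by limma). Without Nat10-CKO replicate 1 it was -0.86 (limma adjusted p of 0.0216) and without Nat10-CKO replicate 3 it was -0.27. Snhg5 (gene ID 72655, chr9:88403105-88404950, minus strand), which carries a pair of SNORD50 genes, had 4.11, 4.50 and 4.51 FPKM against 5.23, 3.70 and 2.76 FPKM. The Nat10-CKO libraries of Snhg5 lay on both sides of the Nat10flox/flox libraries. As for Snhg3 and Snhg8, the highest of them was replicate 1 and the lowest replicate 3. Its log2 fold change was -0.16, interval -0.60 to 0.28, and it was 0.0125 without Nat10-CKO replicate 3.

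The order of the mean FPKM, which is per length, was the same in both groups: Gas5, Snhg1, Snhg6, Snhg3, Snhg12, Snhg5, Snhg8. Gas5 did not overlap Snhg1 in either group. Snhg1 and Snhg6 overlapped in both groups, as did Snhg5 and Snhg8. Snhg6 and Snhg3 overlapped in the Nat10flox/flox libraries and not in the Nat10-CKO libraries, and Snhg12 and Snhg5 did likewise. Snhg3 and Snhg12 overlapped in the Nat10-CKO libraries and not in the Nat10flox/flox libraries. The summed level of the 7 genes was 69.0 ± 7.65 FPKM in the Nat10flox/flox libraries and 65.8 ± 8.70 FPKM in the Nat10-CKO libraries (SD, n = 3 per group). Gas5 took 30.1% to 39.2% of that sum in the 6 libraries.

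Ratios within a library set the hosts against each other. The log2 ratio of Snhg1 to Gas5 was -1.12 ± 0.0975 in the Nat10flox/flox libraries and -0.60 ± 0.32 in the Nat10-CKO libraries (SD, n = 3 per group), with no overlap (two-sided exact permutation p = 0.1). That is the smallest p that 3 libraries against 3 allow, so no ratio could pass 0.05, and adjusted over the 6 ratios to Gas5 it was 0.4. Among the 6 ratios to Gas5 the other 5 overlapped between groups, with differences from -0.64 for Snhg8 to 0.38 for Snhg6. The ratio of Snhg3 to Snhg1, chosen after their values were seen, was lower in the Nat10-CKO libraries, -0.37 ± 0.382 and -1.36 ± 0.393 on the log2 scale, without overlap (SD, n = 3 per group). Since the pair was picked for its difference, it has no test.

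By profile over the 6 libraries, each gene centred on its own mean, the tested genes nearest to the average of the 7 were Gm25835 (a snoRNA row), Bahcc1, Hspa13, Rnf113a2 and C1galt1c1, at Euclidean distances of 0.0214 to 0.0916. The 7 hosts themselves lay at 0.225 (Snhg5) to 0.796 (Snhg8) from their own average. The 5 nearest genes had log2 fold changes between -0.15 and -0.08, and of the 5 none was called by limma.

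The genes that flank the hosts include strong movers. Snhg1 lies head to head with Slc3a2, the heavy chain of amino acid transporters, with 117 bases between them on chromosome 19. Slc3a2 was 4.64, 3.88 and 4.14 FPKM in the Nat10flox/flox libraries and 13.8, 11.2 and 14.4 FPKM in the Nat10-CKO libraries. All Nat10-CKO libraries were thus far above all Nat10flox/flox libraries, a 3.11-fold rise (adjusted p = 0.000451 by limma), while the mean of Snhg1 differed 1.27-fold. Downstream of Snhg1, Wdr74, a factor of large ribosomal subunit assembly, rose from 8.99 ± 0.634 to 25.2 ± 2.28 FPKM (adjusted p = 0.000363 by limma).

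**Figure D2:**
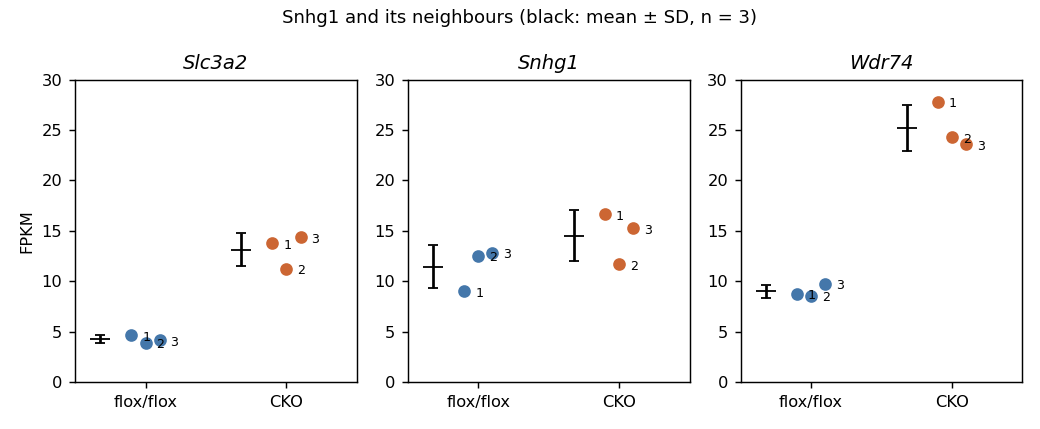
Levels in FPKM (vertical axes, from 0, on a common scale) of Slc3a2, Snhg1 and Wdr74 in the 3 libraries of each group, with replicate numbers, means and SDs. The Nat10-CKO points of Slc3a2 (11.2 to 14.4) and Wdr74 (23.6 to 27.8) are clear of the Nat10flox/flox points, and those of Snhg1 are not.

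Around Snhg3 and Snhg12, which lie on the same stretch of chromosome 4, Rcc1, the exchange factor of the Ran GTPase, was 5.15 ± 0.608 and 5.63 ± 0.296 FPKM and was not called (log2 fold change 0.11). Phactr4 and Trnau1ap were not called either (log2 fold changes of -0.0024 and -0.20). Zbtb37 overlaps Gas5 by 262 bases on the opposite strand and was low, at 0.774 ± 0.0347 and 0.537 ± 0.0537 FPKM. The deposited Gas5 row begins at base 160862171, upstream of the annotated start at 160862736 used for the start region above. The overlap ends at base 160862432 and so lies wholly upstream of that annotated start. The sources used here do not say whether counting used the strand, so reads in that overlap cannot be assigned with certainty. Apart from snoRNA rows, Zbtb37 was the 1 gene of the table that overlapped a host.

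Reads assigned to the snoRNA rows inside the hosts were fewer in the Nat10-CKO libraries. Over the 26 rows they numbered 279, 184 and 241 for Nat10flox/flox against 176, 157 and 127 for Nat10-CKO. Per 1000000 reads (RPM) on the scaling of the deposited FPKM, these were 6.48 ± 0.582 and 4.34 ± 0.541 RPM (SD, n = 3 per group), 1.49-fold fewer, without overlap. The other 1305 snoRNA rows of the table together gave 32.5 ± 2.28 and 28.2 ± 3.37 RPM, 1.15-fold fewer, with overlapping groups. Poly-A selected libraries are poorly suited to mature snoRNAs, which are short and carry no poly-A tail, so these reads do not measure mature snoRNA. Reads from unspliced host RNA over the same bases cannot be told apart from them.

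Gas5 gave the largest share of these reads, 142, 93 and 125 against 105, 69 and 69, or 3.31 ± 0.327 and 2.29 ± 0.486 RPM. All Nat10-CKO libraries were below all Nat10flox/flox libraries (two-sided exact permutation p = 0.1, the smallest possible, and 0.12 adjusted over the 6 hosts with reads). The most read row was SNORD78 in Gas5, with 252 reads over the 6 libraries. In Snhg1 the rows had 45, 39 and 47 reads against 26, 33 and 13, in Snhg3 49, 26 and 35 against 13, 26 and 20, and in Snhg12 42, 24 and 29 against 27, 20 and 22. These 3 hosts were also lower without overlap once scaled (exact permutation p = 0.1 for each). Among all tested genes 55.9% had groups without overlap, in either direction. Set against the reads of the host's own exons, the rows of Snhg1 came to 20.6% to 25.9% in the Nat10flox/flox libraries against 5.26% to 17.1%, and those of Snhg12 to 24.7% to 31.5% against 17.4% to 21.3%. Neither share overlapped between groups (exact permutation p = 0.1 for each, 0.2 adjusted over the 6 hosts). For Gas5 the shares overlapped, at 17.7% to 30.6% and 14.2% to 19.1%, as they did for Snhg3. Snhg5 went the other way, with 1 read per Nat10flox/flox library and 3, 9 and 3 reads in the Nat10-CKO libraries. Once scaled, and as a share of host reads, Snhg5 was higher without overlap (exact permutation p = 0.1 for each, 0.12 and 0.2 adjusted). Snora73a and Snora73b are near-identical copies, as are both SNORD50 rows of Snhg5, so the counting could have split their reads. Snord87 had 7 reads in all, and the row of Snora24 had 0 reads in all 6 libraries. Snora24 lies within the counted sequence of Snhg8, and how the counting assigned reads on those shared bases was not tested.

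**Figure D3:**
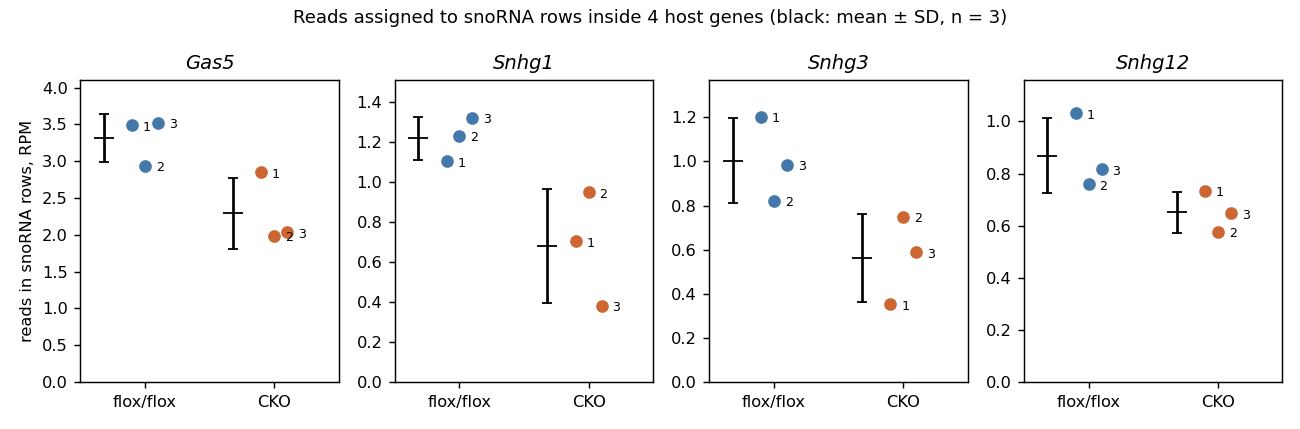
Reads assigned to snoRNA rows inside Gas5, Snhg1, Snhg3 and Snhg12, in RPM on the deposited scaling (vertical axes, from 0, own scale per panel), by library with replicate numbers, means and SDs. In each of the 4 panels the Nat10-CKO points lie below the Nat10flox/flox points. Of the hosts with reads, Snhg5 (higher without overlap) and Snhg6 (groups overlapping) are not shown.

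Of 18 other noncoding host genes listed, 15 were tested, of which 3 were called higher and 2 lower, with a median log2 fold change of -0.10. Neither count exceeds the share among all tested genes (24.4% higher and 16% lower, with a median of 0.03). The members that moved are described singly. Snhg15, the host of SNORA9, was 2.41, 1.71 and 1.14 FPKM in the Nat10flox/flox libraries and 20.9, 12.9 and 20.9 FPKM in the Nat10-CKO libraries, a 10.4-fold rise (adjusted p = 0.000453 by limma). Snhg17 rose 4.54-fold, from 1.47 ± 0.01004 to 6.68 ± 2.56 FPKM, and Snhg16 rose 2.69-fold, from 2.00 ± 0.372 to 5.36 ± 0.0657 FPKM. Snhg7 was lower, with 3.26 ± 0.558 and 1.61 ± 0.509 FPKM (limma adjusted p of 0.0222), and so was Snhg4, with 2.70 ± 0.458 and 1.37 ± 0.650 FPKM (limma adjusted p of 0.0436). These 2 lower calls became 0 without Nat10flox/flox replicate 2, 1 without any of the other libraries but Nat10-CKO replicate 1, and stayed 2 without that one. They were also 0 under TPM-like scaling and with a mean of at least 5 FPKM required, 1 with no filter, under quantile normalization, with voom and with the replicate block, and 4 with array weights. The 3 higher calls were 5 with array weights and 1 with a mean of at least 5 FPKM required. Snhg11 was 6.19 FPKM in Nat10flox/flox replicate 1, the library with neuron markers, and 0 to 0.0282 FPKM in the others. By coordinates, 21 tested long noncoding RNA genes hold a snoRNA row, and of the 14 outside the 7 members 3 were higher (Snhg15, Snhg16, Snhg17) and 2 lower (Snhg7, Snhg4).

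**Figure D4:**
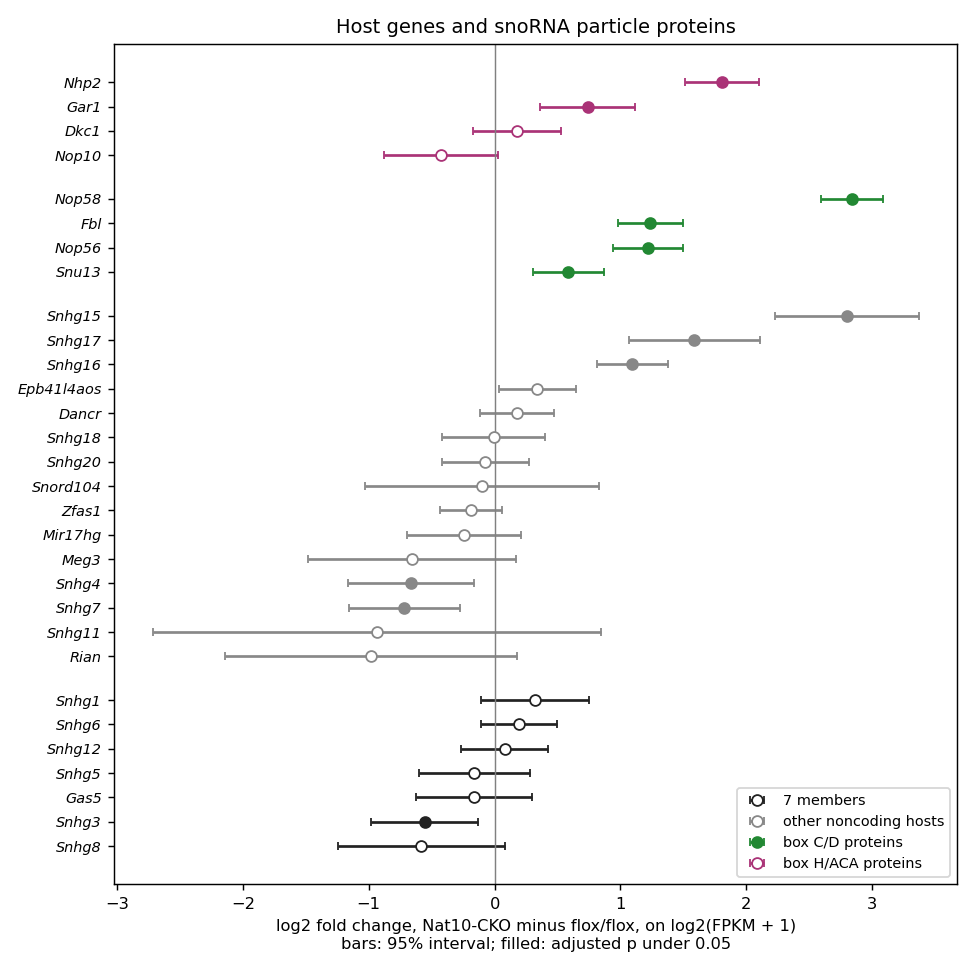
Log2 fold change on log2(FPKM + 1), Nat10-CKO minus Nat10flox/flox, with 95% intervals (horizontal axis) for the 7 host genes, the other tested noncoding hosts and the core proteins of snoRNA particles. Filled points passed an adjusted p of 0.05 by limma, and the 7 hosts lie between -0.58 and 0.32.

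Of the 8 genes for core proteins of snoRNA particles 6 were called higher and 0 lower, against 24.4% and 16% of all tested genes. In addition 1 box H/ACA gene was lower with protein-coding genes rescaled, with mitochondrial genes left out and under quantile normalization. All 4 core proteins of box C/D particles rose, with a median log2 fold change of 1.23. Nop58, which stabilises box C/D snoRNAs, was 7.40, 8.503 and 8.82 FPKM in the Nat10flox/flox libraries and 67.9, 63.5 and 63.9 FPKM in the Nat10-CKO libraries, a 7.90-fold rise (adjusted p = 7.65e-05 by limma). Fbl, the methyltransferase fibrillarin, rose from 17.1 ± 1.24 to 41.7 ± 3.18 FPKM, Nop56 from 5.28 ± 0.0884 to 13.7 ± 1.90 FPKM and Snu13 from 35.6 ± 1.32 to 54.1 ± 6.22 FPKM.

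Among the 4 core proteins of box H/ACA particles 2 rose and 2 were not called. Nhp2 rose from 12.0 ± 0.126 to 44.7 ± 6.38 FPKM and Gar1 from 6.66 ± 0.897 to 11.8 ± 2.26 FPKM. Dkc1, the pseudouridine synthase dyskerin, was 7.67 ± 0.711 and 8.88 ± 1.73 FPKM, and Nop10 was 38.1 ± 4.47 and 28.5 ± 6.56 FPKM. Of 12 tested factors that assemble these particles 7 rose and 0 fell, against 24.4% higher and 16% lower among all tested genes. The count lower was 1 with protein-coding genes rescaled, with mitochondrial genes left out, with array weights and without Nat10flox/flox replicate 1. The count of assembly factors called higher was 4 with a mean of at least 5 FPKM required and 9 with array weights. Nolc1, a chaperone of snoRNA particles, went from 8.51 ± 0.378 to 25.5 ± 4.49 FPKM, and Nufip1, which bridges box C/D proteins to their assembly machinery, from 1.81 ± 0.259 to 5.84 ± 1.30 FPKM. Znhit6 rose 2.37-fold and Ruvbl1, an ATPase of the same machinery, 2.15-fold.

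Genes that carry snoRNAs in introns of a protein-coding transcript were mixed. Of 50 listed and tested, 15 rose and 3 fell, near the 24.4% and under the 16% of all tested genes, and the median log2 fold change was 0.04 against 0.03. By coordinates, 226 protein-coding genes hold a snoRNA row, of which 177 were tested, 58 called higher and 19 lower. The shares of all tested genes were 24.4% and 16%. Of these hosts, 76 tested ones spanned fewer than 20 kb, with 20 higher and 9 lower. The median log2 fold change was 0.14 for the 177 and -0.03 for the 76. Besides Nop58, the listed hosts with the smallest adjusted p were Wdr43, a nucleolar assembly factor that went from 7.72 ± 0.710 to 45.5 ± 4.43 FPKM, Gnl3 (nucleostemin), from 8.22 ± 1.05 to 45.4 ± 11.5 FPKM, and the initiation factor gene Eif4a1, from 86.9 ± 4.99 to 215 ± 19.9 FPKM. The 3 lower hosts were Eif4a2, a paralogue of Eif4a1 (70.7 ± 1.04 and 25.5 ± 6.65 FPKM), Slc25a3, the mitochondrial phosphate carrier, and Rabggtb. The count of lower hosts was 9 without Nat10-CKO replicate 1, 3 without Nat10-CKO replicate 3 and 1 without any other library. It was 5 with protein-coding genes rescaled and with mitochondrial genes left out, 6 under quantile normalization, 12 with array weights, 8 without both Nat10flox/flox replicate 1 and Nat10-CKO replicate 1, and 1 with no filter. The 24 ribosomal protein genes of the list were all among the genes not called. Nop56, Nop58 and Dkc1 stand in this list and in a particle list.

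**Figure D5:**
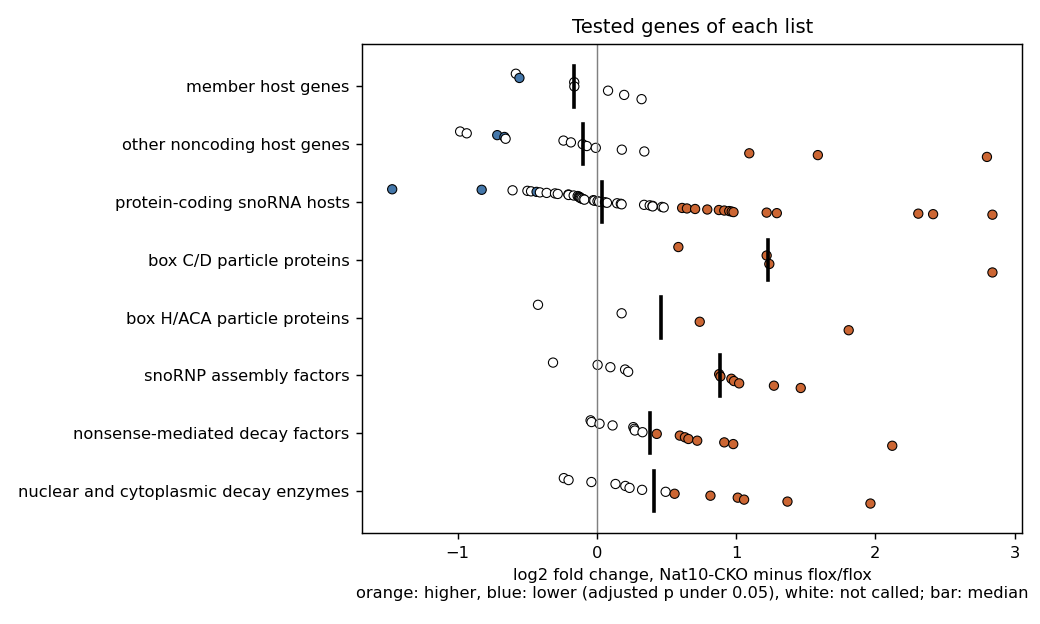
Log2 fold change of each tested gene (horizontal axis) in 8 gene lists, coloured by call, with a black bar at the list median. The medians run from -0.16 for the 7 hosts to 1.23 for the box C/D proteins.

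Nonsense-mediated decay, the pathway known to remove spliced host RNAs, had 8 of 16 genes higher and 0 lower, against 24.4% and 16% of all tested genes. The count higher was 12 under TPM-like scaling, 11 with array weights and 7 to 9 with 1 library left out. It was 6 with a mean of at least 5 FPKM required. Smg5, a factor that recruits decay enzymes, rose from 10.6 ± 0.651 to 49.8 ± 5.59 FPKM (4.68-fold), the endonuclease Smg6 from 3.09 ± 0.158 to 6.73 ± 0.858 FPKM and Eif4a3, of the exon junction complex, from 33.8 ± 2.70 to 56.4 ± 5.46 FPKM. The central helicase Upf1 was not called (18.6 and 20.1 FPKM on average). Among exosome and exonuclease genes 6 of 14 were higher and 0 lower, and 9 were higher and 1 lower with array weights. Mtrex, the helicase of the nuclear exosome, rose from 8.40 ± 0.740 to 35.7 ± 3.73 FPKM, and the exosome genes Exosc10, Exosc4 and Exosc2 rose 2.69-fold, 2.22-fold and 2.28-fold.

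Genes that act on pyrimidine-tract messages were higher for 6 of 9 and lower for 2, against 24.4% and 16% of all tested genes. The lower ones were Eif4ebp2 and Tia1, of which 1 was lost without Nat10flox/flox replicate 2 or 3 and under TPM-like scaling. The count lower was also 1 with a mean of at least 5 FPKM required, and it was 3 with array weights. Eif4ebp1, a translational repressor under mTOR, rose from 78.8 ± 7.84 to 198 ± 11.1 FPKM and Cnbp from 120 ± 13.0 to 276 ± 30.3 FPKM. The genes of mTOR itself and its partner Raptor (Mtor and Rptor) rose 1.58-fold and 1.80-fold. Larp1, which binds the tract directly, was 16.7 and 23.5 FPKM on average and was also called higher.

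Among marker genes of other cells, the endothelial and erythroid lists moved with the labels. Of all tested genes 16% were called lower. All 6 endothelial markers fell (summed level 258 to 317 FPKM against 150 to 163 FPKM). The count was 4 under TPM-like scaling, with no filter, without Nat10flox/flox replicate 2 or 3 and without Nat10-CKO replicate 2 or 3. Lower too were all 5 tested of 6 erythroid markers (689 to 1780 FPKM against 423 to 535 FPKM), of which 1 was left without Nat10flox/flox replicate 2 or Nat10-CKO replicate 2 and 2 without Nat10flox/flox replicate 1. With no filter the erythroid count was 1. Of 6 fibroblast markers 0 were called (434 to 458 FPKM against 384 to 691 FPKM), and likewise 0 of the 4 tested of 6 leukocyte markers (60.5 to 89.3 FPKM against 59.0 to 79.3 FPKM). Over the alternatives 0 to 3 fibroblast markers were called higher and 0 to 1 lower, and 0 to 1 leukocyte markers in either direction. Of the 8 cardiomyocyte markers Tnni3, the adult cardiac troponin I, was called lower, at 1660 ± 110 and 558 ± 151 FPKM. The count for this list moved with scaling: it was 5 lower with protein-coding genes rescaled, 4 lower with mitochondrial genes left out, and 3 lower and 1 higher under quantile normalization. Scaling by total reads, array weights, the replicate block and leaving out Nat10-CKO replicate 3 each gave 2 lower. In 3 tested of 8 neuron markers 0 were called, and Snap25 was at 0 in all libraries but Nat10flox/flox replicate 1. The part of these shifts in the host gene levels was not tested.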

How the data were processed

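Poly-A selected, directional libraries of heart RNA were sequenced as read pairs of 150 bp, per the labels' protocols. Per the series' design text, HISAT2 2.2.1 did the alignment, with GRCm39 as the genome, and featureCounts 2.0.6 the assignment to genes; CASAVA and DESeq2 1.42.0 are also named in the submitters' processing notes. The authors deposited FPKM, 1 column per library, for 46452 genes. FPKM times gene length was a whole number of reads for 100% of values (tolerance 0.01 read), which gave the reads quoted. The denominators equalled median-of-ratios size factors times the geometric mean of library totals.

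The comparison of groups used limma 3.58.1 (R 4.3.3, trend, two-sided) on log2(FPKM + 1) over genes with a mean of at least 1 FPKM, with Benjamini-Hochberg adjustment over all tested genes and a threshold of 0.05. The procedure was tested on simulated data in which few genes changed and all genes shared the same setting for their spread. That setting differs from these data, so the simulation does not give the error rate here. Single ratios used exact permutation tests in scipy 1.17.1. Sequences were read with samtools 1.23.1 and pysam from GRCm39. Figures used matplotlib 3.10.9.

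The host genes and lists were chosen with earlier results of these data known. Named genes are the 7 members, Nat10, up to 4 genes of smallest adjusted p per list, flanking genes and the 5 nearest profiles; Snhg4, Snhg11, Eif4a2, Slc25a3, Rabggtb, Eif4ebp2, Tia1, Upf1, Larp1, Dkc1, Nop10 and Snap25 were added after their values were seen. Some genes the rule names are not reported here. The snoRNA rows were taken by biotype, a choice made after seeing the table, since most embedded ones carry no snoRNA symbol. Alternatives covered the pseudocount, filter, scaling, limma settings, voom, replicate block and libraries left out. Sample columns without a listed sample numbered 0.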

Additional observations from a re-analysis of the deposited data

How the results depend on the processing

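The count of host genes called higher was 0 under all 21 alternatives. The count called lower, 1 as reported, was 0 with no filter on low values, under TPM-like scaling, under scaling by total reads, without the trend, with voom, with the replicate block and with a minimum absolute log2 fold change of 1. It was 2 with array weights (Snhg3 and Snhg8) and 3 without both libraries that stand apart, Nat10flox/flox replicate 1 and Nat10-CKO replicate 1 (Gas5, Snhg3 and Snhg8). Leaving out 1 library gave 0 to 2, with 2 only without Nat10-CKO replicate 1. The count over all genes, 4856, was 1520 with the minimum fold change, and 3285 to 5055 with 1 library left out. The sign of Snhg12 turned with protein-coding genes rescaled (-0.02498) and with mitochondrial genes left out (-0.01785). With 1 library left out its log2 fold change ran from -0.04168 to 0.2229, and that of Snhg5 from -0.3512 to 0.01246. TPM-like scaling moved the median log2 fold change of all genes by 0.14 and rescaling of protein-coding genes by -0.10. The ratio of snoRNA-row reads, 0.67, was 0.637 to 0.717 under the alternatives added after the data were seen. The cause of these changes was not tested. Same-numbered libraries correlated at 0.0373 to 0.105 in their deviations from the group means, so the numbers were not taken to pair them, and Nat10flox/flox replicate 2 correlated best with another number; with the replicate block 4390 genes were called. Depth limits Snhg8 most, with 34 to 144 reads per library, and the snoRNA rows, where single hosts rest on 0 to 142 reads.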
